A study of Mus musculus with 5 samples.

Results

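The red cell program was followed in sorted hematopoietic stem cells (HSCs) through 8 genes taken by name: Car1, Car2, Hba-a1, Slc4a1, Rhag, Ermap, Aqp1 and Tfrc. All 8 were found among the 24046 gene symbols of the expression table, and all 8 were among the 13661 symbols that passed a filter of at least 10 normalized reads in at least 2 libraries. Their values were not used to choose them, although they were proposed with earlier results of these data known.

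The samples were HSCs from the bone marrow of CD45.1 congenic recipients of whole donor marrow, sorted as CD45.2+, Lin-, Sca1+, cKit+, CD150+ and CD48- cells and sequenced in bulk. Every donor was Syncrip flox/flox, so that floxed Syncrip, which encodes an RNA-binding protein, was shared by both groups. The control group (WT, n = 3 libraries, WT 1 to WT 3) was Mx1 Cre- and the knockout group (KO, n = 2 libraries, KO 2 and KO 3) was Mx1 Cre+. Both groups received polyinosinic:polycytidylic acid (pIpC), an interferon inducer that switches on Cre from the Mx1 promoter, and were collected 3 weeks after pIpC and 9 weeks after transplantation. The Mx1 promoter responds to interferon in many cell types, so recombination was not restricted to HSCs. No age was given in the labels, and they did not tie libraries to separate animals, so the p-values measure only the spread between these libraries.

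Erythroid cells arise from HSCs by way of progenitors shared with megakaryocytes. As these progenitors commit under GATA1, KLF1 and erythropoietin, they take up iron through the transferrin receptor, make heme and globin, and build a membrane that carries the band 3 anion exchanger, the Rh complex, blood group antigens and a water channel. Carbonic anhydrase in the cytosol interconverts carbon dioxide and bicarbonate, and the anion exchanger carries the bicarbonate across the membrane.

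Library depth was 21748781 to 22779536 reads for WT, 18308876 for KO 2 and 12539599 for KO 3, so KO had fewer reads than WT throughout. The targeted gene, Syncrip, had 1440 to 1944 normalized reads in WT and 294 and 343 in the KO libraries, and was the single gene that passed the test of genotype (limma, log2 fold change -2.43, SE 0.22, adjusted p = 0.0352). It was -1.53 (limma adjusted p = 0.138) once each library was corrected for the length and GC of the transcripts, and -2.55 to -2.34 with each WT library left out in turn (limma adjusted p = 0.164 to 0.209), none of which passed. Of the gate's own genes, Kit (8007 to 10741) and Slamf1, which encodes CD150 (195 to 522), were read in all 5 libraries. Mpo, the myeloperoxidase gene of myeloid progenitors, had 175652 to 343980 normalized reads in the same libraries.

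Promoters were examined because erythroid genes are classical targets of GATA1, which binds a GATA core, and of KLF1, which binds a CACC box. The 250 bases before the annotated start were at hand for 5 of the 8 genes (Hba-a1, Rhag, Ermap, Aqp1 and Tfrc, the last with a pair of starts) from RefSeq on GRCm38.p6. A GATA hexamer (AGATAA, with T in place of the first base or G in place of the last also counted, on either strand) stood in the windows of 3 of the 5, against 26.5% of 32851 promoters. A CACC octamer (CCACACCC or CCACGCCC on either strand) stood in 0 of the 5, against 7.72% of promoters. The 5 are genes, whereas the percentages count single promoters. The 3 matches are shown with the hexamer in capitals, each printed only as far as the first exon that GENCODE M21 annotates for the gene. They lay 183 bases before the RefSeq start for Hba-a1, 67 for Ermap and 31 for Rhag, in the reverse complement (TTATCA) for Ermap and Rhag. The windows were chr11:32283422-32283510 on the plus strand, chr4:119190012-119190245 on the minus strand and chr17:40810899-40811125 on the plus strand.
Hba-a1: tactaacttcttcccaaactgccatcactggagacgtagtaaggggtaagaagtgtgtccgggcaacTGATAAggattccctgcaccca
Ermap: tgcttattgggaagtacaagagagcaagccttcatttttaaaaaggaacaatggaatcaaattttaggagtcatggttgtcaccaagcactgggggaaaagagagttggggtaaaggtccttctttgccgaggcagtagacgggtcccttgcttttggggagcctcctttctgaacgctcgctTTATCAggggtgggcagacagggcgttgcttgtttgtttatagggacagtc
Rhag: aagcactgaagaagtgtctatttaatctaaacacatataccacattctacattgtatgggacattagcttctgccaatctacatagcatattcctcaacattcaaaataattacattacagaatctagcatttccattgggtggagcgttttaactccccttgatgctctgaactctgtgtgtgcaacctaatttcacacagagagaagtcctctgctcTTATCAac
A match gives only that these letters are present.

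In WT HSCs the 8 genes spanned a wide range of expression. Per kilobase of exon, the carbonic anhydrases Car2 (16008 ± 2271 normalized reads per kb, SD, n = 3) and Car1 (15061 ± 3722) came first, and their WT libraries overlapped. The water channel Aqp1 followed at 3655 ± 982 normalized reads per kb, below every Car1 and above every Ermap library. Ermap (1409 ± 334), Hba-a1 (1323 ± 330) and Rhag (1268 ± 396) could not be separated by their WT libraries. Tfrc, at 840 ± 207 normalized reads per kb, overlapped with Rhag, and Slc4a1 was last at 160 ± 49.98, below all Tfrc libraries. In KO the order by mean level per kb was Car2 (10594), Car1 (6184), Aqp1 (3187), Hba-a1 (1821), Ermap (781), Rhag (595), Tfrc (364) and Slc4a1 (70.1).

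To ask whether erythroid priming differed with genotype, KO was compared with WT by limma on log2(normalized reads + 1), a scale that understates changes of low genes, with p-values adjusted over all tested genes. Of the 8 genes, 7 had a log2 fold change below 0, against 48.9% of all tested genes, and their median was -1.08 against 0.02 over all tested genes. Limma called 0 of 8 at an adjusted p under 0.05 (0.00732% of all tested genes were called, Syncrip alone). At an unadjusted p under 0.05 there were 6 of 8 lower in KO, a direction in which 14.5% of all genes passed. DESeq2 on the recovered reads called 3 of 8 lower (Car1, Tfrc and Rhag), against 9.46% of all genes called lower, while edgeR's quasi-likelihood test (0.0146% of all genes called) and limma-voom called 0 of 8. In bulk libraries such as these, fewer cells with erythroid transcripts and less of the transcript per cell cannot be told apart.

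**Figure D1:**
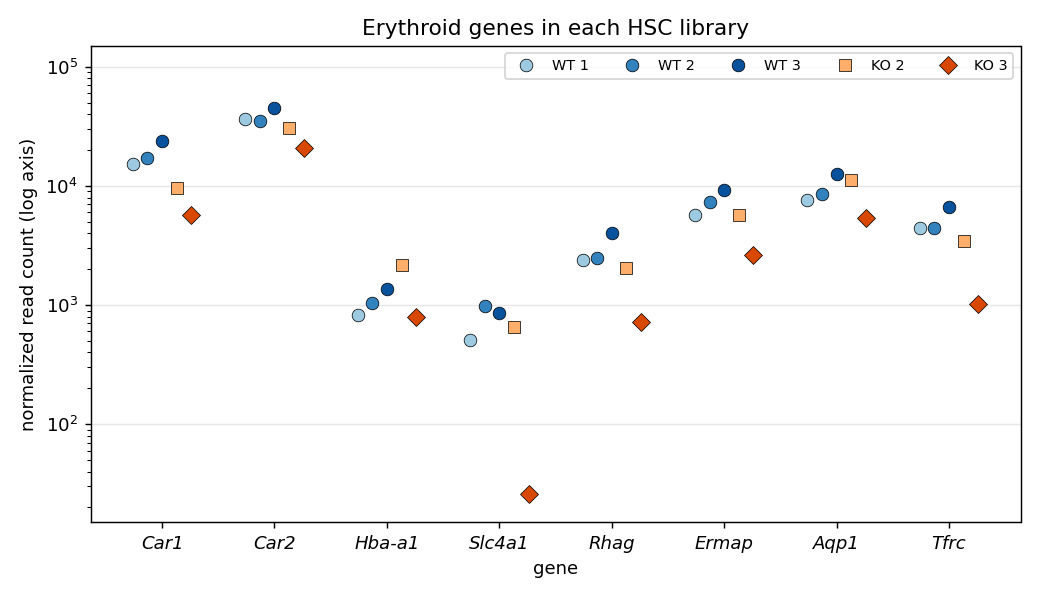
Normalized read count on a log axis of each of the 8 genes in the 3 WT libraries (circles) and in KO 2 (square) and KO 3 (diamond). KO 3 is the lowest library for all 8 genes, while KO 2 is below every WT library for 5 and above every WT library for Hba-a1.

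Car1 encodes the cytosolic carbonic anhydrase I of red cells, one of the early markers of erythroid commitment. It had 15235, 17102 and 24050 normalized reads for WT 1, WT 2 and WT 3, and 9703 and 5733 for KO 2 and KO 3. Both KO libraries lay under the lowest WT library, at 51.6% and 30.5% of the WT mean. Mean counts were 18796 ± 4645 (SD, n = 3) for WT and 7718 ± 2807 (SD, n = 2) for KO, a log2 fold change of -1.31 (SE 0.28, 95% interval -1.94 to -0.67, limma adjusted p = 0.0815). It had the smallest adjusted p of the 8 genes, and DESeq2 called it lower (log2 fold change -1.28, adjusted p = 0.000829).

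Car2 encodes carbonic anhydrase II, a faster enzyme of the same reaction that is also made in many other cells. Its counts were 36219, 35013 and 45085 in WT and 30462 and 20856 in KO 2 and KO 3, and again both KO libraries were under all WT libraries. The log2 fold change was -0.61 (SE 0.23, 95% interval -1.13 to -0.09), with limma and DESeq2 adjusted p of 0.131 and 0.0572. Car1 and Car2 are neighbours on mouse chromosome 3, with Car1 at 14766216 to 14808368 on the minus strand and Car2 at 14886273 to 14900770 on the plus strand (GENCODE M21, GRCm38). Car1 counted as a percentage of Car2 was 42.1, 48.8 and 53.3 in WT and 31.9 and 27.5 in KO, so the ratio of the neighbours was lower in both KO libraries than in any WT library. Car3, which lies between them (14863512 to 14872523), had 71.2 to 102 normalized reads in WT and 86.6 in KO 3 but 3361 in KO 2, the library with adipocyte transcripts described further on.

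Hba-a1 encodes the adult alpha chain of hemoglobin. Reads could not be assigned to it alone, since its counts were identical in every library to those of its near-identical copy Hba-a2. It was read 827, 1037 and 1358 times in WT, 2169 times in KO 2 and 788 times in KO 3 after normalization. KO 2 was thus above and KO 3 below all WT libraries, and KO 2 held 2.75 times the KO 3 count. The log2 fold change was 0.31 with a 95% interval of -0.61 to 1.23 (SE 0.40, limma adjusted p = 0.632), wide enough to hold a change in either direction. Its sign depended on KO 2, being -0.42 when KO 3 was compared alone with WT.

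Slc4a1 encodes band 3, the anion exchanger of the red cell membrane. Its normalized count was 513, 988 and 851 in the WT libraries, with 660 for KO 2 and 25.8 for KO 3. KO 2 lay inside the WT range, whereas KO 3 held 3.29% of the WT mean, from 17 recovered reads (exact Poisson interval 15.04 to 41.3 on the normalized scale, which covers counting error only). The log2 fold change of -2.51 (SE 1.08, 95% interval -4.96 to -0.05, limma adjusted p = 0.174) averaged unequal libraries, and the difference from WT was -4.82 for KO 3 and -0.19 for KO 2 taken alone. The estimate also depended on the model, at -1.19 by DESeq2 (adjusted p = 0.559).

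Rhag encodes the Rh-associated glycoprotein, an ammonia and gas channel that holds the Rh complex together. Its counts were 2402, 2461 and 4036 in WT, while KO 2 had 2057 and KO 3 had 726, so KO 2 was just under the lowest WT library and KO 3 far under it. The log2 fold change was -1.24 (SE 0.42, 95% interval -2.19 to -0.29), and the adjusted p was 0.112 by limma and 0.0487 by DESeq2. KO 3 held 24.5% of the WT mean and KO 2 69.3%.

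Ermap encodes an erythroid membrane-associated protein that carries the Scianna blood group antigens. WT libraries had 5756, 7348 and 9288 normalized reads, KO 2 had 5654 and KO 3 had 2621. KO 2 differed from WT 1 by a margin smaller than any gap between WT libraries, although it was lower than all of them. The log2 fold change was -0.93 (SE 0.33, 95% interval -1.68 to -0.18, limma adjusted p = 0.121).

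Aqp1 encodes the aquaporin 1 water channel, which carries the Colton blood group and is also made by endothelium. It had 7691, 8577 and 12538 normalized reads in WT, 11321 in KO 2 and 5426 in KO 3. The KO libraries stood on opposite sides of the WT mean, and only KO 3 was outside the WT range. Its log2 fold change was -0.26 (SE 0.33, 95% interval -1.01 to 0.48, limma adjusted p = 0.624), which turned to 0.27 without KO 3.

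Tfrc encodes transferrin receptor 1, the entry route for iron, and is used by all dividing cells as well as erythroblasts. Its counts were 4476, 4439 and 6680 in WT, 3480 in KO 2 and 1018 in KO 3. Both KO libraries were under all WT libraries, with KO 3 at 19.6% of the WT mean and KO 2 at 66.9%. The log2 fold change was -1.44 (SE 0.45, 95% interval -2.46 to -0.41), with an adjusted p of 0.101 by limma and 0.0360 by DESeq2.

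**Figure D2:**
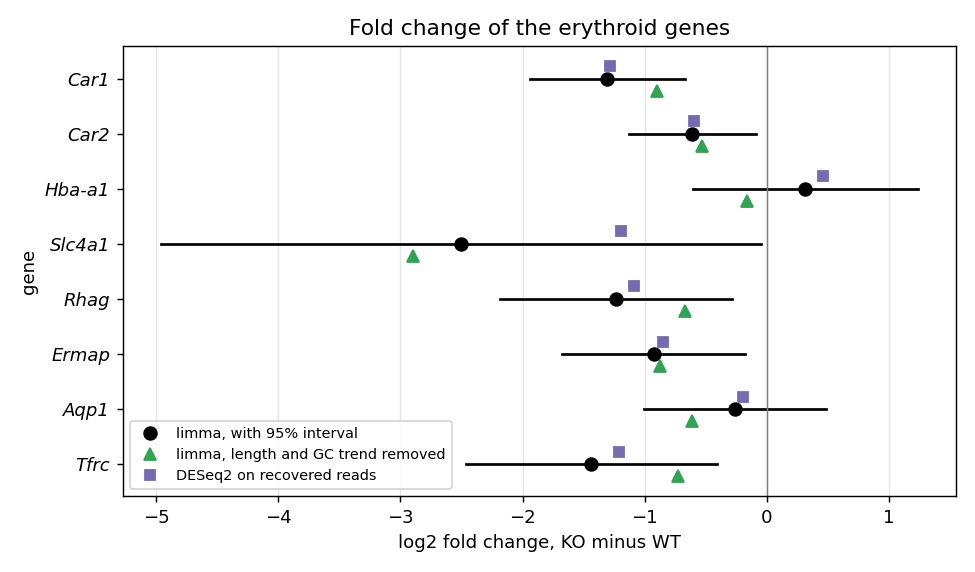
Log2 fold change (KO minus WT) of each gene by limma with its 95% interval (black), by limma after removal of the length and GC trend (green triangles) and by DESeq2 (purple squares). The limma intervals of 6 genes lie below 0, and those of Hba-a1 and Aqp1 include it.

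Counted over the 8 genes, both KO libraries were below every WT library in 5 (Car1, Car2, Rhag, Ermap and Tfrc), a pattern held by 23.2% of all tested genes, and above every WT library in 0, against 23.9%. KO 3 was the lowest of the 5 libraries for 8 of 8, against 33.7% of all tested genes. KO 2 was below all WT libraries for 5 of 8 (30.9% of all tested genes) and above them for 1, Hba-a1 (32.8% of all tested genes). The depth of the difference was unequal. In KO 3 the median of the 8 log2 differences from the WT mean was -1.58 (from -4.82 for Slc4a1 to -0.42 for Hba-a1), and 5 of 8 were more than 2-fold lower, against 15.9% of all tested genes. In KO 2 the median was -0.36 (from -0.93 for Car1 to 1.04 for Hba-a1), and 0 of 8 were more than 2-fold lower, against 5.78% of tested genes.

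The WT libraries also differed among themselves. Set against the mean of the other WT libraries, WT 1 had a median log2 difference of -0.42 over the 8 genes and was lower for 8 of 8, WT 2 had -0.18 and was lower for 6 of 8, and WT 3 had 0.56 and was lower for 0 of 8. Of all tested genes, 48.5% were lower in WT 1, 47.6% in WT 2 and 46.5% in WT 3. WT 3 was the highest of all libraries for 6 of the 8 genes, the exceptions being Slc4a1 (WT 2) and Hba-a1 (KO 2). The sum of the 8 genes took 0.401%, 0.408% and 0.532% of the normalized reads of the WT libraries (WT 1 to WT 3), 0.348% of those of KO 2 and 0.195% of those of KO 3. Both KO libraries were thus below the WT range, and KO 2 lay closer to WT 1 than WT 1 lay to WT 3. With KO 2 left out, KO 3 alone against the 3 WT libraries gave 6 of 8 genes lower at an adjusted p under 0.05, while 14.4% of all genes tested were called lower in that comparison (limma, on the assumption that the lone library varies as WT does). With KO 3 left out the count was 0 of 8, with 2 of 8 at an unadjusted p under 0.05, of which Car1 was lower (-0.93) and Hba-a1 was higher (1.04); 8.65% of all genes were lower and 5.94% higher at that limit, so these counts stood near the background.

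The 8 genes did not keep fixed proportions. Car2 supplied 43.4% to 49.5% of the summed reads of the 8 genes in WT, 46.5% in KO 2 and 56.1% in KO 3. The share of Car1 was 20.8% to 23.2% in WT, 14.8% in KO 2 and 15.4% in KO 3, below all WT libraries in both KO libraries. The share of Aqp1 was 10.5% to 12.1% in WT and higher in both KO libraries, at 17.3% in KO 2 and 14.6% in KO 3. None of these shares was corrected for the length and GC of the transcripts. Across the 5 libraries, the closest profiles were those of Rhag and Tfrc (root mean square difference of 0.14 on the log2 scale after centring), followed by Car1 and Ermap (0.22). Slc4a1 stood apart from all the others, at 1.09 or more from each.

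Each KO library also carried a difference along base composition, which touches these genes unequally. When the tested genes with an annotated transcript (13015) were ranked by GC content into 10 bins of equal size, the median log2 difference from the WT mean ran from -0.99 in the bin of lowest GC to 1.01 in that of highest GC for KO 3, and from -0.54 to 0.47 for KO 2. Tfrc (39.8% GC) and Rhag (42.2% GC) lie low in GC. In KO 2, Tfrc differed from WT by -0.55 where its bin had a median of -0.54, and Rhag by -0.48 where its bin had -0.37. Car1 (44.8% GC) differed by -0.93 in KO 2 against -0.24 for its bin. In KO 3 all 8 genes were below the median of their bin, Tfrc at -2.32 against -0.99 and Slc4a1 at -4.82 against 0.41. The part of base composition in the comparison was therefore measured by removing a linear trend on length and GC content from each library.

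After that removal the 8 genes had a median log2 fold change of -0.70, and 8 of 8 were below 0. Car1 was at -0.90 (SE 0.23, limma adjusted p = 0.173), Car2 at -0.54, Ermap at -0.87, Rhag at -0.67, Tfrc at -0.73, Aqp1 at -0.61 and Hba-a1 at -0.16. Slc4a1 was at -2.90. Both KO libraries were below every WT library only for Car1 and Car2, 2 of 8, against 18.5% of corrected genes. KO 3 remained the lowest library for 8 of 8, against 34.0% of genes. In the corrected KO 2 library Tfrc (-0.04) and Rhag (-0.12) differed little from the WT mean, while Car1 was at -0.72. Aqp1 was at 0.03 there. In the corrected KO 3 library Aqp1 was at -1.25, Car1 at -1.09 and Car2 at -0.75.

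**Figure D3:**
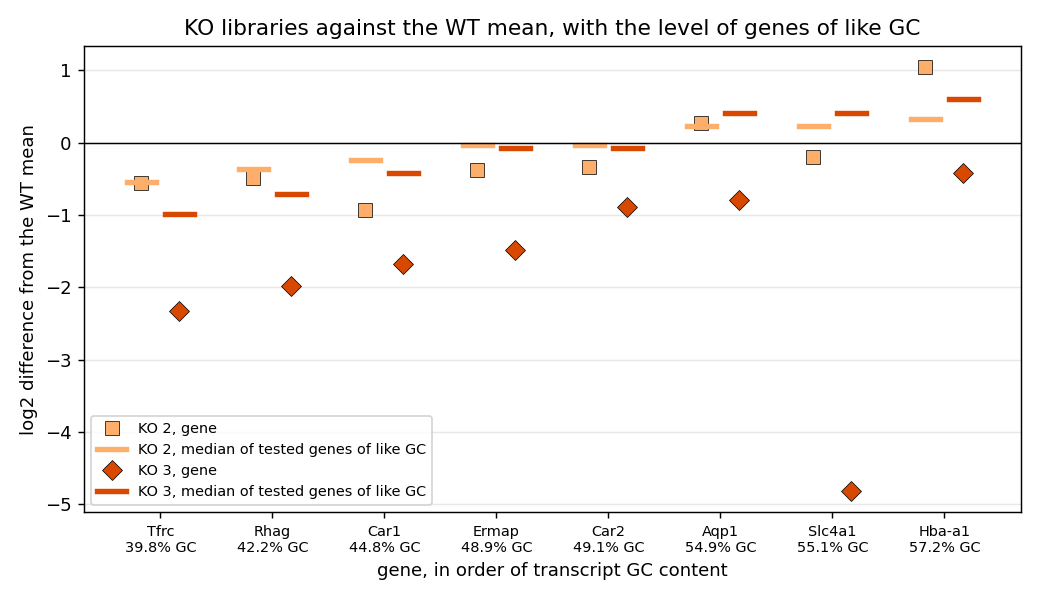
Log2 difference from the WT mean of each gene in KO 2 (squares) and KO 3 (diamonds), with bars for the median of all tested genes in the same GC bin, the genes ordered by GC content. Tfrc and Rhag of KO 2 sit near their bars, and all 8 diamonds of KO 3 lie below theirs.

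The wider red cell program was then read from lists of related genes that do not name the 8. Among 14 erythroid transcription factors, all tested, 12 had a log2 fold change above 0 and the median was 0.59, against -1.08 for the 8 genes. The list is not confined to red cells, since Nfe2 also acts on platelet genes and Myb in progenitor growth. KO was above all WT libraries for 10 of 14 (23.9% of tested genes) and below for 1 (23.2%), and 0 passed the limma test in either direction, with 8 higher at an unadjusted p under 0.05 (13.3% of tested genes). Zfpm1, which encodes the GATA1 cofactor FOG1, had 2666, 4468 and 3343 normalized reads in WT, 7468 in KO 2 and 20105 in KO 3 (limma log2 fold change 1.84, SE 0.39, adjusted p = 0.0815). Lmo2, an adaptor of the GATA1 and TAL1 complex, had 6537 to 9066 in WT, 8431 in KO 2 and 16767 in KO 3. Nfe2, a factor of globin and platelet genes, had 6434 to 6793 in WT, 8153 in KO 2 and 12162 in KO 3. Myb, a factor of progenitor growth, had the lowest fold change of the list (-0.14), at 6535 to 7081 in WT and 6141 and 6178 in KO.

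Klf1, Gata1 and Gata2 were looked at by name after their values were seen, because they stand above the 8 genes in erythroid differentiation. Klf1 had 4231, 5800 and 6500 normalized reads in WT and 8090 and 7671 in KO, above all WT libraries (log2 fold change 0.54, limma adjusted p = 0.147). Its transcript is 61.0% GC, in the bin of highest GC. Klf1 differed from the WT mean by 0.58 in KO 2 and 0.50 in KO 3, where that bin had medians of 0.47 and 1.01. Gata1 had 2590 to 3442 in WT and 3134 and 2819 in KO, inside the WT range (log2 fold change -0.06, limma adjusted p = 0.864). Gata2, the factor that GATA1 replaces as red cells mature, had 2269 to 4973 in WT, 5333 in KO 2 and 14815 in KO 3 (log2 fold change 1.29, limma adjusted p = 0.118). The transcription factor list is rich in GC (median 56.3%, against 49.9% over tested genes), and 10 of 14 were above 0 once the length and GC trend was taken out, with a median of 0.37. Its median was 0.35 without KO 3 and 0.85 without KO 2, and DESeq2 called 6 of 14 higher, against 9.27% of all genes called higher.

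Globin symbols other than Hba-a1 numbered 10 in the table, of which 6 were tested and 6 were above 0 (median 0.37), with 0 called by limma, 0 at an unadjusted p under 0.05 and 0 with both KO libraries beyond WT. Over all tested genes, 13.3% were higher and 14.5% lower at that unadjusted limit, and 23.9% lay above WT and 23.2% below. Only 4 of these 6 carry distinct reads, since the adult beta chain symbols Hbb-bs and Hbb-b1 were identical in every library and so were Hbb-bt and Hbb-b2, and of these Hba-a2 repeats the reads of Hba-a1, so that 3 are separate from the 8 genes. Hbb-bs had 853, 838 and 1351 normalized reads in WT, 2596 in KO 2 and 837 in KO 3, the same order of KO libraries as Hba-a1. Hbq1b, a theta-like globin, had 6.66 to 28.3 in WT and 16.4 and 10.6 in KO. The median of the list was -0.15 without KO 2 (2 of 6 above 0) and 0.81 without KO 3 (6 of 6). With the length and GC trend removed, 2 of the 4 symbols that had a length and GC value were above 0 and 2 below, with a median of 0.14.

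In the list of 13 red cell membrane and skeleton genes in the table, 11 had a log2 fold change below 0, with a median of -0.37. KO was below all WT libraries for 5 (23.2% of tested genes) and above for 1 (23.9%), 0 passed the limma test, and 4 lower and 1 higher had an unadjusted p under 0.05 (14.5% and 13.3% of tested genes). Icam4, the Landsteiner-Wiener antigen, had the highest log2 fold change (0.83), with 463 to 599 normalized reads in WT and 768 and 1209 in KO. Of the most abundant, Rhd, the partner of Rhag, had 3532 to 5452 in WT and 4731 and 3163 in KO, the urea transporter gene Slc14a1 had 3305 to 4193 in WT and 3121 and 3212 in KO, and Add2, beta adducin, had 2105 to 2956 in WT and 2759 and 1672 in KO. The direction of the list was that of KO 3 (median -0.72), and in KO 2 its median was 0.01. With the length and GC trend removed the median log2 fold change was -0.45, with 11 of 13 below 0.

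Iron and heme supply, to which Tfrc belongs by role, had 16 tested genes with 12 below 0 and a median of -0.13. KO was below WT for 2 (23.2% of tested genes) and above for 3 (23.9%), and limma called 0, with 2 lower and 2 higher at an unadjusted p under 0.05 (14.5% and 13.3% of tested genes), so these counts were at or under the background. Slc40a1, ferroportin, the iron exporter, had 3370, 3445 and 4553 normalized reads in WT and 2369 and 825 in KO (limma log2 fold change -1.42, SE 0.39, adjusted p = 0.0877). Ftl1, ferritin light chain, an iron store, had 23467 to 26589 in WT and 36993 and 37808 in KO (0.59, limma adjusted p = 0.0941). Its partner Fth1 had 25682 to 33402 in WT and 36716 and 33689 in KO. The median of the list was 0.15 without KO 3 and -0.43 without KO 2.

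Epo receptor signaling gave 6 tested genes, 3 above and 3 below 0 (median 0.03), with KO above WT for 2 (23.9% of tested genes) and below for 2 (23.2%) and 0 called by limma. At an unadjusted p under 0.05 there were 1 higher and 2 lower (13.3% and 14.5% of tested genes). Epor, the erythropoietin receptor itself, had 2096, 2383 and 2347 normalized reads in WT and 3230 and 3604 in KO (limma log2 fold change 0.59, SE 0.17, adjusted p = 0.0916), with both KO libraries above WT by more than the WT range. Its transcript is 59.6% GC, close to the median of the bin of highest GC (59.9%). Epor differed from the WT mean by 0.51 in KO 2 and 0.67 in KO 3, where that bin had medians of 0.47 and 1.01. Lyn, a kinase that acts with the receptor, had 2030 to 2617 in WT and 1339 and 1244 in KO (-0.88, SE 0.19, limma adjusted p = 0.0815). Kit had 8119 to 10741 in WT and 8007 and 10259 in KO, Stat5b had 2999 to 3944 in WT and 2957 and 5010 in KO, and Stat5a had 2823 to 3419 in WT and 3674 and 4631 in KO. Epor and Lyn were thus ordered alike in both KO libraries, in opposite directions. The median of the list was -0.25 without KO 3 and 0.31 without KO 2.

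Late maturation genes numbered 14 tested, 9 of them below 0, with a median of -0.31. With the length and GC trend removed 9 were again below 0, with a median of -0.11. KO was below WT for 4 (23.2% of tested genes) and above for 2 (23.9%), near the background, and limma called 0, with 4 lower and 2 higher at an unadjusted p under 0.05 (14.5% and 13.3% of tested genes). Trim58, a ubiquitin ligase of enucleation, had 156 to 208 normalized reads in WT and 311 and 340 in KO (log2 fold change 0.89, limma adjusted p = 0.111). Blvrb, a reductase of red cells, had 4103 to 5527 in WT and 5581 and 4028 in KO, Mfsd2b, a sphingosine phosphate exporter, had 3541 to 4292 in WT and 2954 and 2611 in KO, and Tspan33 had 1978 to 3734 in WT and 2995 and 1857 in KO. The median of the list was 0.03 without KO 3 and -0.60 without KO 2, where limma called 4 lower (14.4% of all genes tested) and 1 higher (12.2%).

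**Figure D4:**
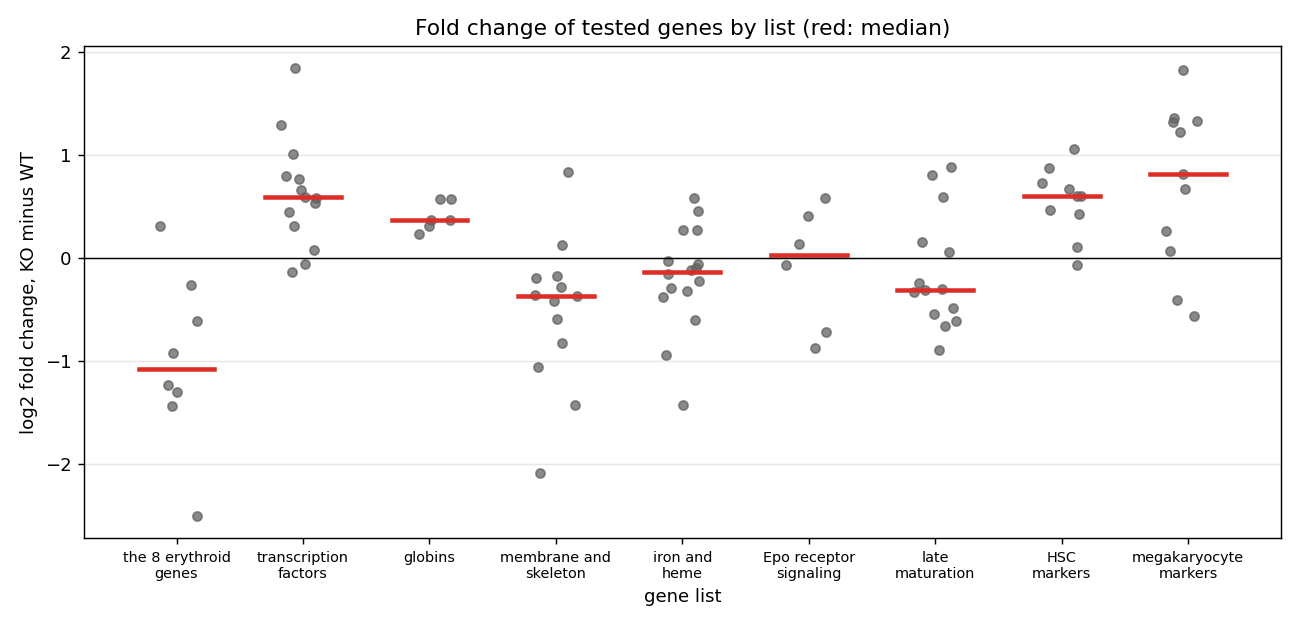
Log2 fold change (KO minus WT) of each tested gene (points) in the 8 erythroid genes and in 8 lists, with the median of each list in red. The 8 genes have the lowest median (-1.08), the membrane list is at -0.37, and the transcription factor list is at 0.59.

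Markers of HSCs and of other marrow cells were read in the same libraries, and their part in the results was not tested. Adipocytes and endothelial cells lack CD45, so a CD45.2+ gate would remove them. The 10 HSC markers, 10 of 10 detected, summed to 10795 to 16285 normalized reads in WT, 12127 in KO 2 and 17974 in KO 3, led by Kit and by Hlf (631 to 1719 in WT, 924 and 2114 in KO). Their median log2 difference from the WT mean was 0.75 for WT 1, -0.03 for WT 2, -0.64 for WT 3, 0.14 for KO 2 and 1.04 for KO 3. Over the WT libraries, the library with the highest erythroid genes (WT 3) was therefore the lowest in HSC markers, and the library with the lowest erythroid genes (WT 1) was the highest. KO 3 was the highest of all in HSC markers and the lowest in erythroid genes.

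Megakaryocyte markers, 11 of 12 tested, summed to 13704 to 19345 in WT, 18789 in KO 2 and 41277 in KO 3. Itga2b had 2185 to 4153 in WT, 3158 in KO 2 and 9285 in KO 3, and Cd9 had 4143 to 4418 in WT and 3233 and 2559 in KO. Of the 11 tested, KO was above WT for 6 (23.9% of all tested genes) and below for 1 (23.2%), and the list median was 1.60 in KO 3 and 0.23 in KO 2. Myeloid progenitor markers, 6 of 6 tested, summed to 309819 to 486818 in WT, 450058 in KO 2 and 279224 in KO 3, led by Mpo and by Elane (71505 to 100807 in WT, 107246 and 71897 in KO). Endothelial markers, 8 of 8 tested and listed because endothelium also makes Aqp1, summed to 2280 to 3880 in WT, 3897 in KO 2 and 8157 in KO 3, led by Tie1 and Egfl7. The list median was 0.42 in KO 2 and 0.23 in KO 3. Which cells carried these transcripts was not tested, so the sum does not measure endothelial cells.

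**Figure D5:**
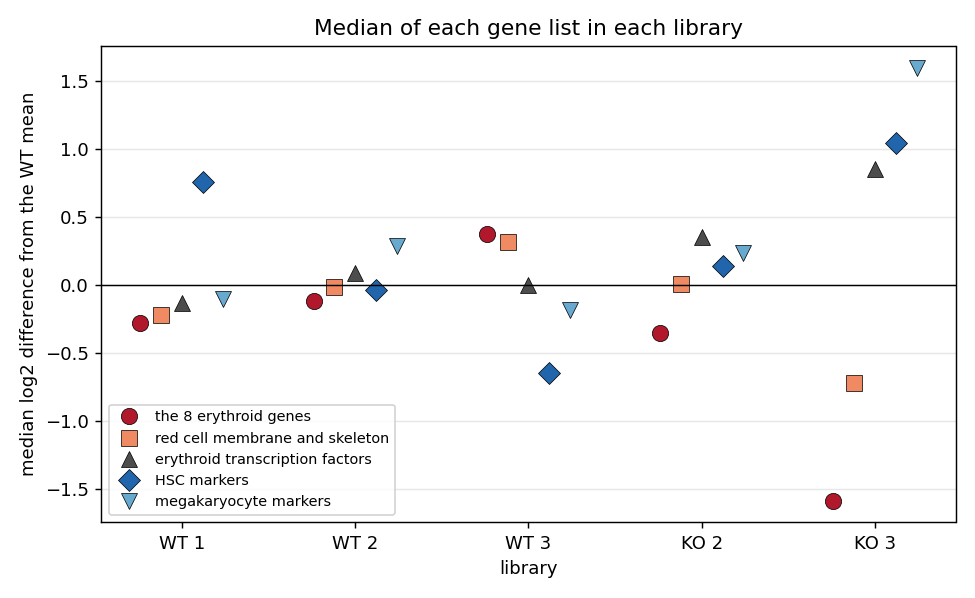
Median log2 difference from the WT mean, in each library, of the 8 erythroid genes, the membrane list, the erythroid transcription factors and the HSC and megakaryocyte markers. In KO 3 the erythroid genes are at -1.58 while the HSC markers are at 1.04 and the megakaryocyte markers at 1.60. The medians drawn are not corrected for the length and GC of the transcripts.

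Basophil and mast cell markers, 6 of 7 tested, summed to 5547 to 7631 in WT, 3737 in KO 2 and 5601 in KO 3, led by Hdc (3232 to 5227 in WT, 3102 and 1897 in KO) and Prss34 (200 to 1808 in WT, 381 and 2974 in KO). Osteoclast markers, relevant to Car2, had 3 of 7 tested and Ocstamp and Calcr at 0 in every library; they summed to 4433 to 8053 in WT and 3404 and 3209 in KO, led by Mmp9 (4021 to 7460 in WT, 2739 and 2977 in KO), with Acp5 at 387 to 571 in WT and 654 and 232 in KO. Adipocyte markers, 3 of 8 tested, summed to 25.7 to 205 in WT, 20077 in KO 2 and 1.52 in KO 3. Fabp4 had 7687 normalized reads in KO 2 and 128 or fewer in every other library, and Ucp1 had 5622 in KO 2 and 0 in every other. KO 2 was thus the library with adipose transcripts and also the library in which Hba-a1 and the adult beta chain symbols were highest.

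Genes whose profile over the 5 libraries was most like that of the 3 most abundant of the 8 were sought among 10550 genes with a mean of at least 100 normalized reads. Car2 was closest to Trip4 (root mean square difference of 0.03 on the log2 scale after centring), Phf10 (0.04) and Rrm1 (0.04), the last a subunit of ribonucleotide reductase. Car1 was closest to Usp46 (0.05), Brip1 (0.07) and Kpna1 (0.09). Aqp1 was closest to Carhsp1 (0.05), Cdr2 (0.08) and Oscp1 (0.09). With 5 libraries and this many candidates, these are descriptions of likeness.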

How the data were processed

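RNA was measured by low-input (SMART-Seq) sequencing of 3 WT and 2 KO libraries of sorted HSCs. The authors deposited a normalized signal per gene symbol, that is, counts scaled by size factors; the submitters' processing notes name STAR, featureCounts, DESeq2 and mm10 without versions or settings, and use of strand is not given in the sources used here. They also deposited fold changes and p-values of their own comparison, which were not used. Each column was a multiple of its smallest step, and dividing by that step returned whole reads for 100% of values (tolerance 0.01); these recovered counts give the depths. Intervals on single counts cover counting error only, since no molecular identifiers were used and reads may repeat a molecule. Every pair of libraries differed beyond counting noise (lowest chi-square divided by its degrees of freedom, 32.6).

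Because the values are normalized, KO was compared with WT by limma (lmFit and eBayes with a trend, version 3.58.1) on log2(value + 1), for genes that reached 10 in 2 or more libraries, with Benjamini-Hochberg adjustment over all 13661. Genes were called at an adjusted p under 0.05. Alternatives were other pseudocounts, no filter, TMM and quantile scaling, array weights, limma-voom, edgeR (version 4.0.16) and DESeq2 (version 1.42.0) on the recovered reads, the replicate number as a block, regression of each library on the log2 length and GC content of the longest GENCODE M21 transcript, and omission of each library. R was version 4.3.3. The tests were tried on simulated data first.

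The 8 genes and all lists were chosen with earlier results of these data known. From each erythroid list the text names the 3 genes of highest mean, those of lowest and highest fold change and those called; from other lists the 2 of highest mean and any at 0 in every library; 3 genes that this rule names are not reported here. Values per kb divide by summed exon length in GENCODE M21. Promoters came from RefSeq (GRCm38.p6). Likeness is the root mean square difference of log2 profiles, each centred on its own mean.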

Additional observations from a re-analysis of the deposited data

How the results depend on the processing

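The direction of 6 genes (Car1, Car2, Slc4a1, Rhag, Ermap and Tfrc) was below 0 under all 16 alternatives. The sign of Hba-a1 turned to -0.16 with the length and GC trend removed and to -0.42 without KO replicate 2, and that of Aqp1 turned to 0.27 without KO replicate 3; with each library left out they ranged from -0.42 to 1.04 and from -0.79 to 0.27. The number of the 8 genes called was 3 by DESeq2 and 0 to 6 when each library was left out, with the 6 arising without KO replicate 2; it was 0 under all other alternatives. The median over the 8 genes was -0.70 with the length and GC trend removed, and -1.58 (without KO replicate 2) to -0.36 (without KO replicate 3) when each library was left out. Genes with every KO library beyond all WT libraries numbered 2 with the trend removed and 5 to 8 when each library was left out; the 8 compare KO 3 alone with WT, where 38.3% of all genes were lower.

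Over all genes, limma called 1, against 2 with a pseudocount of 10, 0 with no filter (with 3963 at unadjusted p under 0.05), 0 with array weights (3328), 0 by limma-voom (3517), 2 by edgeR, 2279 by DESeq2, 0 with the length and GC trend removed (2253) and 0 to 3560 when each library was left out, the 3560 without KO replicate 2 and 11 without KO replicate 3. Same-numbered WT and KO libraries share only a number (2 shared numbers, with a correlation of deviations of -0.15 over 13661 genes). With the replicate number as a block 6 genes were called, 0 of the 8 among them, and the median of the 8 was -1.23. KO 3 was the lowest of the 5 libraries for 8 of 8 genes, against 33.7% of all tested genes. With 2 KO libraries that differ in depth and in base composition, genotype and these library features cannot be told apart.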

Other observations

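Relatives of the 8 genes in the same families were mostly low. Of 14 further carbonic anhydrase genes, 9 were tested and 0 were called by limma, with 0 at an unadjusted p under 0.05 (13.3% of all tested genes were higher and 14.5% lower). Car3, the most abundant, was high in KO 2 alone (3361 normalized reads, against 71.2 to 102 in the other libraries), and the hypoxia-inducible membrane enzyme Car9 had 187 to 286 normalized reads in WT and 300.2 and 294.6 in KO. Car13, in the same cluster on chromosome 3 as Car1 and Car2, had 76.4 to 95.1 in WT and 89.4 and 66.8 in KO, and Car5b, a mitochondrial enzyme, had 29.1 to 39.1 in WT and 18.5 and 13.7 in KO. Car6 and Car10 were at 0 in every library.

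Of 10 further aquaporin genes, 2 were tested. Aqp9, an aquaglyceroporin, had 1207, 1167 and 1105 normalized reads in WT and 839 and 743 in KO, below all WT libraries (log2 fold change -0.55, SE 0.19, limma adjusted p = 0.117), and Aqp11 had 161 to 179 in WT and 154 and 152 in KO. Aqp7, the glycerol channel of adipocytes, had 107 in KO 2 and 3.47 or fewer in every other library. Aqp4, Aqp6 and Aqp12 were at 0 in every library.

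Among 10 further Rh and Slc4 genes, 5 were tested and 0 were called by limma, with 0 at an unadjusted p under 0.05 (13.3% of all tested genes were higher and 14.5% lower). The anion exchanger Slc4a2 had 1155 to 1380 normalized reads in WT and 1432 and 1801 in KO, and the bicarbonate transporters Slc4a7 and Slc4a8 had 314 to 378 and 108 to 127 in WT and 251 and 217 and 158 and 80.5 in KO 2 and KO 3. Slc4a3 had 18.3 to 32.1 in WT and 27.8 and 60.7 in KO (log2 fold change 0.65, limma adjusted p = 0.527). Rhcg had 35.6 to 76.6 in WT and 64.8 and 16.7 in KO (-0.63, limma adjusted p = 0.577). Slc4a10 and Slc4a11 were at 0 in every library.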
